A study of Mus musculus with 12 samples.

Results

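The genes described here are 42 listed members of ATF4-driven amino acid metabolism and cytosolic tRNA charging, among 25759 genes in the deposited table. Whether ATF4 drives each member in these organoids was not tested. They were listed by gene name, with earlier results of these data known. The members comprise 13 genes listed as synthesis enzymes, which are Asns, Psat1, Phgdh, Psph, Shmt2, Mthfd2, Cth, Cbs, Gpt2, Got1, Pck2, Aldh18a1 and Pycr1. Apart from Pck2, the mitochondrial phosphoenolpyruvate carboxykinase, these enzymes serve amino acid synthesis or mitochondrial one-carbon metabolism. Another 7 are plasma membrane transporters, which are Slc7a1, Slc7a5, Slc3a2, Slc38a2, Slc1a4, Slc1a5 and Slc6a9. A further 4 are ATF4 targets with other roles, which are Stc2, Eif4ebp1, Adm2 and Vldlr. The tRNA exporter Xpot and 17 cytosolic aminoacyl-tRNA synthetases complete the set. All 42 passed the filter on low counts and are among the 12805 genes tested.

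RNA was sequenced from mouse gastric organoids, which are epithelial structures grown from stomach tissue in Matrigel. There were 3 libraries each of organoids kept for 4 h with Fusobacterium nucleatum, with Helicobacter pylori or with Neisseria subflava, and 3 of untreated organoids. The labels give no time for the untreated organoids. Per the labels, all groups had been moved at passage to medium lacking growth factors and antibiotics. Mouse strain and age, the bacterial strains and their dose are not given in the sources used here, nor is it said whether the 3 libraries of a group came from separate cultures or animals. The p-values therefore measure only the spread between these libraries.

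ATF4 is a transcription factor whose protein is made in larger amounts when the translation initiation factor eIF2 is phosphorylated, as happens when amino acids run short, when proteins misfold in the endoplasmic reticulum, or when heme is lacking. With C/EBP family partners it binds a composite DNA element, the C/EBP-ATF response element, and drives genes that import amino acids, make them and attach them to tRNA. The synthetases each charge a tRNA with its amino acid, and Xpot carries tRNA out of the nucleus. In the stomach these genes serve an epithelium that secretes much mucin and pepsinogen.

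The core of that element was looked for in RefSeq promoters (GRCm38.p6) that run from 250 bases before each gene's start to 50 bases after it. Of the 42 members, 31 had a promoter in the table, with 36 promoters between them, and Cth, Slc7a5, Slc1a5, Eif4ebp1, Cars, Hars, Lars, Nars, Rars, Vars and Wars were not matched. The letters TGATGNAA, read on both strands, were found in 11 of the 31 (35.5%), against 3.97% of all 32851 promoters in the table. A member counted if any of its promoters held the letters, whereas the share of all is by single promoter, so the units differ. The same holds for the other motifs. The members holding TGATGNAA were Asns, Got1, Pck2, Pycr1, Slc1a4, Vldlr, Aars, Gars, Iars, Tars and Yars. The windows of 30 bases below are those of the 4 with the largest change with Neisseria, and of Iars, which fell with Fusobacterium and rose with Neisseria; they were chosen after the values were seen. They are shown from 5′ to 3′ on the strand that reads as the motif, with the motif in capitals.
Vldlr: gctaggagcgcTGATGCAActattgctgct
Pck2: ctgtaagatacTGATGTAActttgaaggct
Slc1a4: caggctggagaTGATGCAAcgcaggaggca
Asns: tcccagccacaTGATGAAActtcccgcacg
Iars: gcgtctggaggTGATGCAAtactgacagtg
The windows lie at chr19:27216809-27216838 (minus strand) for Vldlr, chr14:55540152-55540181 (minus strand) for Pck2 and chr11:20332699-20332728 (plus strand) for Slc1a4. They lie at chr6:7693214-7693243 (minus strand) for Asns and chr13:49682126-49682155 (minus strand) for Iars. The motif began 200 bases before the annotated start in Vldlr, 103 in Pck2, 23 in Asns and 4 in Slc1a4, and 7 bases after it in Iars. The RefSeq starts used for Vldlr, Asns and Iars lie inside the spans of these genes in the deposited table, and so do their windows. The distances given are from the RefSeq starts. The cAMP response element, TGACGTCA, was found in 0 of the 31 members, against 1.79% of all promoters. The E-box CACGTG, the site of MYC and related factors, was found in 6 (19.4%), against 7.15% of all promoters. Those were Cbs, Aldh18a1, Xpot, Aars, Iars and Tars, and no match overlapped one of another motif. A match is a description of these letters and not a site shown to be bound.

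**Figure D1:**
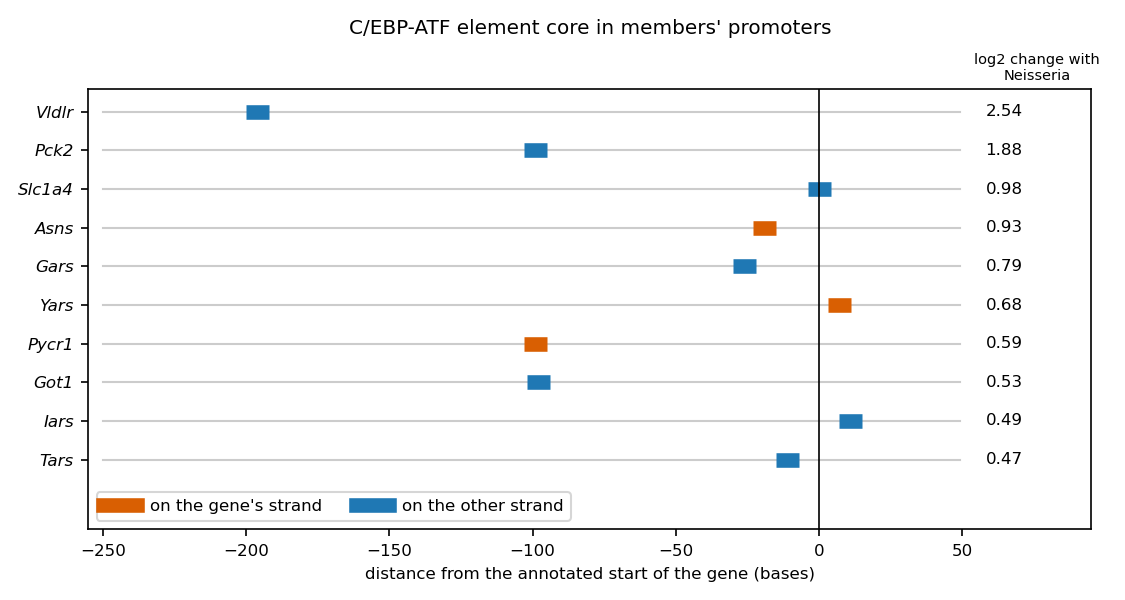
Position of the C/EBP-ATF element core in the promoters of 10 of the 11 members that hold it, as distance in bases from the annotated start. Grey lines span the window searched, orange marks are on the gene's strand and blue marks on the other, and the numbers are log2 fold changes with Neisseria, which run from 0.47 for Tars to 2.54 for Vldlr.

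With Neisseria most members rose, with Helicobacter about as many rose as did not, and with Fusobacterium as many fell as rose. Against untreated organoids, 34 members were higher and 3 lower with Neisseria, while 25.4% of all tested genes were higher and 25.5% lower. With Helicobacter 23 were higher and 3 lower, against 10.5% and 8.36% of all tested genes. With Fusobacterium 12 were higher and 12 lower, against 32.8% and 32.4% of all tested genes, so the members' shares of 28.6% in each direction were near the background. The median log2 fold change of the members was 0.67 with Neisseria, 0.19 with Helicobacter and 0.03 with Fusobacterium, and that of all tested genes was -0.02, 0.00 and 0.00. Calls are from edgeR's quasi-likelihood test on counts at an adjusted p of 0.05 with no fold minimum, and changes are log2 fold changes ± standard error. In these bulk libraries fewer cells of a type and less RNA per cell cannot be told apart.

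The size of the change also differed. A rise of at least 2-fold was called in 12 members with Neisseria, in 3 with Helicobacter and in 2 with Fusobacterium, against 4.47%, 0.929% and 9.9% of all tested genes. The change was largest with Neisseria for 34 of the 42 members and lowest with Fusobacterium for 31, where 29.8% and 42.2% of all tested genes were so placed. The order Neisseria, Helicobacter, Fusobacterium was followed by 29 members and by 21.6% of all tested genes. The most common pattern, in 10 members, was a rise with Helicobacter and Neisseria and no call with Fusobacterium. Another 8 rose with all 3 bacteria, which were Mthfd2, Psph, Gpt2, Slc7a5, Slc1a4, Eif4ebp1, Vldlr and Cars. The Mthfd2 call with Fusobacterium was lost in 4 fits that leave out a library. The Slc1a4 call with Helicobacter was lost with limma on log2(TPM + 1). Shmt2, Slc38a2, Stc2, Aars and Lars fell with Fusobacterium and rose with the other bacteria, although with limma on log2(TPM + 1) the rise with Helicobacter was not called for Slc38a2, Aars and Lars, nor the fall for Shmt2. Wars fell with all 3. Across the 4 groups together, 39 members differed, where 80.8% of all tested genes did. The exceptions were the synthetases Hars, Kars and Qars.

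**Figure D2:**
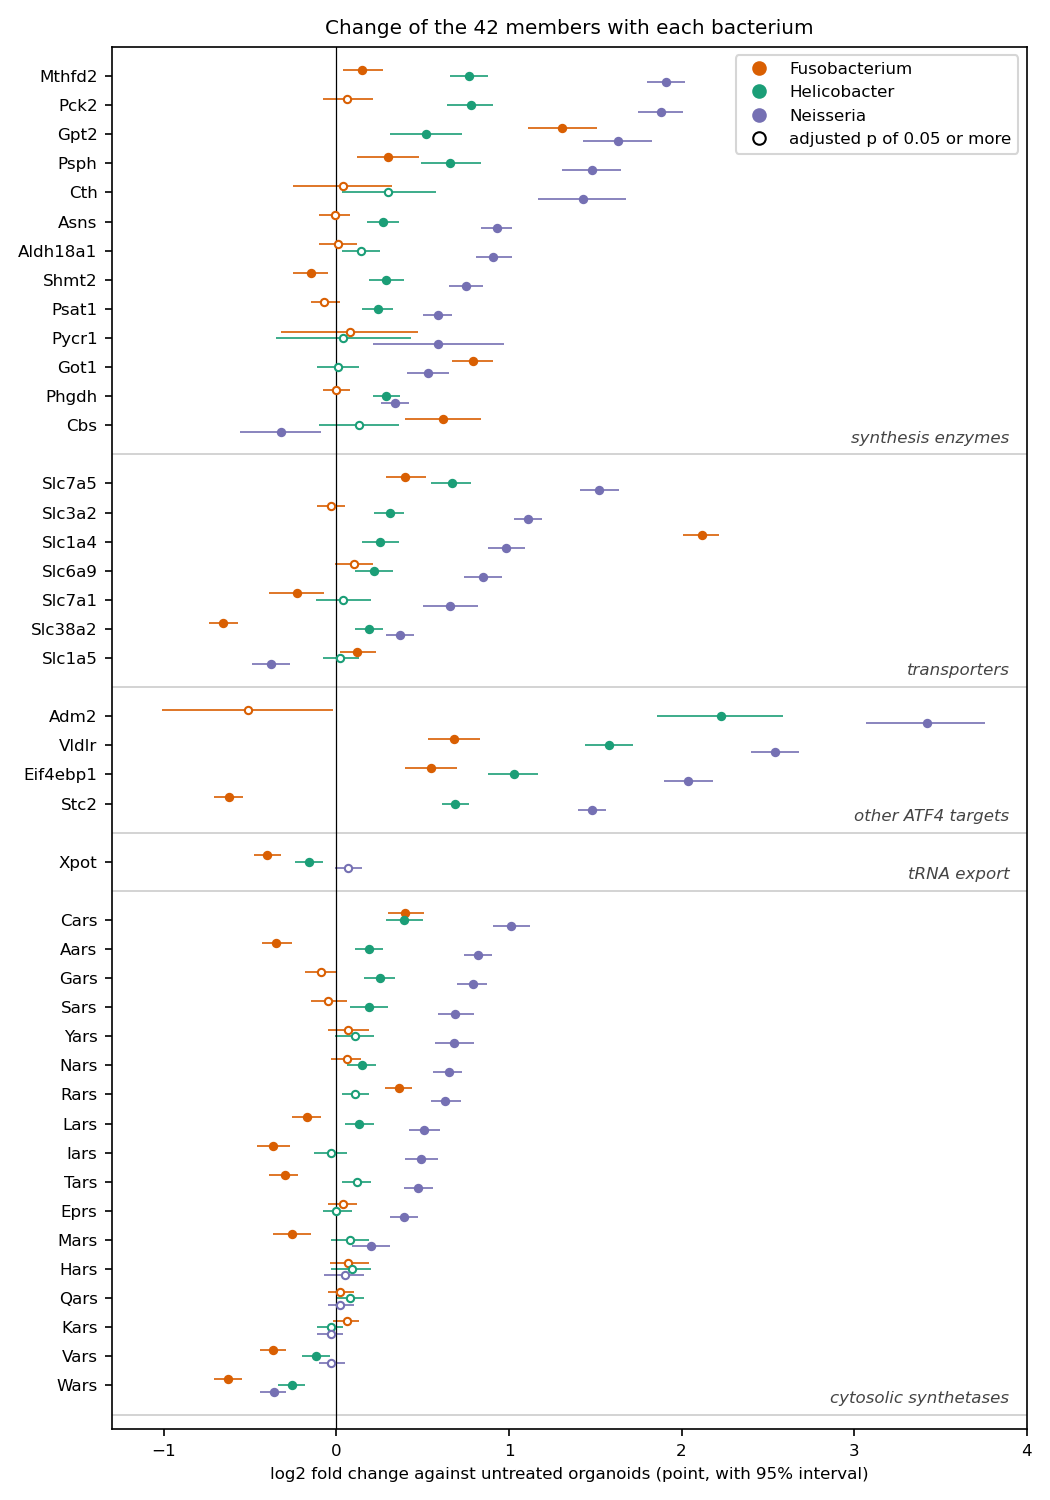
Log2 fold change of each of the 42 members against untreated organoids, with its 95% interval, by role and bacterium (edgeR, 3 libraries a group). Open points did not reach an adjusted p of 0.05; Neisseria points lie furthest right for 34 members, and the exceptions among those called include Slc1a4, Got1, Cbs and Slc1a5.

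Levels are given as TPM, a transcript abundance scaled for gene length whose sum is fixed in each library. They were not rescaled between libraries, whereas the fold changes were. On log2(TPM + 1) with limma the median of all genes was -0.20 with Neisseria and -0.09 with Helicobacter, so a TPM level can lie lower against untreated than its fitted change. With Neisseria this turned the sign for Xpot, Hars, Qars and Mars. Members ranged in mean level in untreated organoids from 2.09 TPM for Pycr1 to 414 TPM for Nars. The lowest count in any library was 20 for Adm2, and then 52 for Pycr1 and 105 for Cth, while the highest was 15117 for Nars.

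Library totals were 16955155 to 23236260 counts. The 11 markers of gastric epithelium summed to 14027 to 15315 TPM in the untreated libraries and 10652 to 12813 in the 9 treated ones, with no overlap and none of the 11 at 0. The TPM of 33%, 27.1% and 49.3% of all tested genes also lay wholly below untreated with Fusobacterium, Helicobacter and Neisseria. The median log2 fold change of the 11 markers was -0.78, -0.93 and 0.01 in that order. Of the 11, 8 were lower and 1 higher with Fusobacterium, 5 lower and 0 higher with Helicobacter, and 3 lower and 4 higher with Neisseria. Among all tested genes, 32.4% were lower and 32.8% higher with Fusobacterium, 8.36% and 10.5% with Helicobacter, and 25.5% and 25.4% with Neisseria. The part of the gastric markers in the members' changes was not tested. The 12 markers of pancreatic islet summed to 300 to 407 TPM in the untreated libraries, 208 in Helicobacter replicate 1, 5.94 in Helicobacter replicate 2 and at most 1.82 elsewhere, with Gcg, Ppy, G6pc2 and Slc30a8 at 0 counts in all Fusobacterium and Neisseria libraries. The 14 markers of pancreatic acinar cells found in the table summed to 42.8 to 50.5 TPM untreated, 29.7 in Helicobacter replicate 1 and 9.32 to 14 elsewhere. The part of these cells in the members' changes was not tested. Without Helicobacter replicate 1, 20 members were higher and 2 lower with Helicobacter than untreated. The 5 leukocyte markers summed to 22.5 to 27 TPM untreated, 24.3 to 24.7 with Helicobacter, 29.3 to 30.8 with Neisseria and 40.9 to 44.3 with Fusobacterium. Nearly all of it was Cd68, while Cd3e was at 0 counts in the untreated and Helicobacter libraries. Only 2 of these markers, Cd68 and Ptprc, were tested. Both were higher with Fusobacterium (log2 change 0.74 and 1.59) and with Neisseria (0.47 and 2.07), and neither was called with Helicobacter. The part of leukocytes in the members' changes was not tested. The 6 fibroblast markers summed to 1.53 to 4.37 TPM.

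Most synthesis enzymes rose with Neisseria. Of the 13, 12 were higher and 1 lower with Neisseria, 8 were higher and 0 lower with Helicobacter, and 5 were higher and 1 lower with Fusobacterium. The shares higher were 92.3%, 61.5% and 38.5% in that order, against 25.4%, 10.5% and 32.8% of all tested genes. The shares lower were 7.69%, 0% and 7.69%, against 25.5%, 8.36% and 32.4%. The share higher with Fusobacterium was thus near that of all genes. The median log2 change of the enzymes was 0.91, 0.29 and 0.06 in the same order. Their summed level was 939 ± 18.6 TPM (SD, n = 3) untreated, 1017 ± 1.53 with Fusobacterium, 1079 ± 9.29 with Helicobacter and 1366 ± 48.6 with Neisseria.

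The largest change among them was that of Mthfd2 (ENSMUSG00000005667, chr6:83305691-83325908), the mitochondrial enzyme that passes one-carbon units from serine towards formate. Mthfd2 stood at 40.9, 40.9 and 44.2 TPM in the untreated libraries, 48.3, 48.2 and 46.4 with Fusobacterium, 69.2, 66.3 and 64.9 with Helicobacter and 135, 132 and 143 with Neisseria. Every Neisseria library lay above every Helicobacter library, and these lay above all Fusobacterium and untreated libraries. The log2 change was 1.91 ± 0.06 (adjusted p = 9.34e-19) with Neisseria, a 3.75-fold rise, and 0.77 ± 0.06 (adjusted p = 3.09e-10) with Helicobacter. With Fusobacterium it was 0.15 ± 0.06 (adjusted p = 0.0276), a call that was lost without any of 4 libraries, Fusobacterium replicate 1 or 2 or untreated replicate 1 or 2 (0.12 to 0.14, adjusted p = 0.0755 to 0.118). Shmt2 (ENSMUSG00000025403, chr10:127517123-127522444), which makes glycine and the one-carbon unit that Mthfd2 receives, measured 107, 105 and 101 TPM in the untreated libraries, 91.2, 99.5 and 97.7 with Fusobacterium, 116, 121 and 119 with Helicobacter and 141, 148 and 168 with Neisseria. It was lower than untreated in all 3 Fusobacterium libraries and higher in all Helicobacter and Neisseria libraries. Shmt2 fell by 0.15 ± 0.05 on the log2 scale with Fusobacterium (adjusted p = 0.0148) and rose by 0.29 ± 0.05 (adjusted p = 0.000215) with Helicobacter and 0.75 ± 0.05 (adjusted p = 8.63e-12) with Neisseria. The fall was not called without Fusobacterium replicate 1 or untreated replicate 1 (-0.13 to -0.12, adjusted p = 0.0552 to 0.0862), nor with limma on log2(TPM + 1) (-0.12, adjusted p = 0.0798).

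Pck2 (ENSMUSG00000040618, chr14:55540266-55551242), the mitochondrial phosphoenolpyruvate carboxykinase, had a similar order of groups. Its levels were 10.6, 11.3 and 9.98 TPM in the untreated libraries, 11.9, 11.6 and 10.6 with Fusobacterium, 17.5, 17.4 and 16 with Helicobacter and 33.4, 33.3 and 35.1 with Neisseria. The Neisseria libraries were highest, the Helicobacter libraries next, and the Fusobacterium and untreated libraries overlapped. The change in Pck2 was 1.88 ± 0.07 (adjusted p = 3.71e-17) with Neisseria, 0.78 ± 0.07 (adjusted p = 7.69e-09) with Helicobacter and 0.06 ± 0.07 (adjusted p = 0.45) with Fusobacterium. Psph (ENSMUSG00000029446, chr5:129765558-129787449), which completes serine synthesis, was found at 24.6, 23.4 and 27.5 TPM in the untreated libraries, 32.1, 32.3 and 30.6 with Fusobacterium, 38.2, 33.7 and 39.8 with Helicobacter and 62.9, 61.8 and 58.7 with Neisseria. No Neisseria library overlapped any other group, and all treated libraries were above the untreated ones. Psph rose by 1.48 ± 0.09 (adjusted p = 8.06e-13), 0.66 ± 0.09 (adjusted p = 7.9e-06) and 0.30 ± 0.09 (adjusted p = 0.00719) with Neisseria, Helicobacter and Fusobacterium. A Cct6a transcript on the other strand covers 10.4% of its exonic bases, and the use of strand in counting is not stated.

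Gpt2 (ENSMUSG00000031700, chr8:85492576-85527560), the mitochondrial alanine aminotransferase, rose with Fusobacterium as well as with Neisseria. Gpt2 measured 5.55, 4.47 and 4.22 TPM in the untreated libraries, 11.4, 11.3 and 13.6 with Fusobacterium, 5.98, 6.82 and 6.37 with Helicobacter and 12.8, 11.8 and 13.9 with Neisseria. The Fusobacterium and Neisseria libraries overlapped each other and lay above all others. Its change was 1.31 ± 0.10 (adjusted p = 1.43e-10) with Fusobacterium, 1.63 ± 0.10 (adjusted p = 2.66e-12) with Neisseria and 0.52 ± 0.11 (adjusted p = 0.00134) with Helicobacter. Neisseria was above Fusobacterium by 0.32 ± 0.09 (adjusted p = 0.0044), a call that was lost without scaling beyond the library total (0.15, adjusted p = 0.185) and with limma on log2(TPM + 1) (0.08, adjusted p = 0.512). Got1, the cytosolic aspartate aminotransferase, likewise rose with Fusobacterium, by 0.79 ± 0.06 (adjusted p = 6.36e-11), and with Neisseria by 0.53 ± 0.06 (adjusted p = 9.53e-08), and was 0.01 ± 0.06 with Helicobacter.

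Cbs (ENSMUSG00000024039, chr17:31612623-31637199), which joins homocysteine to serine on the way to cysteine, was the enzyme that was lower with Neisseria. Cbs stood at 11.7, 12.6 and 14.1 TPM in the untreated libraries, 19.4, 22.2 and 18.8 with Fusobacterium, 13.8, 12.2 and 13.1 with Helicobacter and 7, 10.5 and 9.35 with Neisseria. All Fusobacterium libraries were above and all Neisseria libraries below the untreated ones. Cbs rose by 0.62 ± 0.11 (adjusted p = 4.84e-05) with Fusobacterium and was -0.32 ± 0.12 (adjusted p = 0.03) with Neisseria. The lower level with Neisseria was not called without Neisseria replicate 1 or 3 or untreated replicate 3, where the change was -0.34 to -0.19 (adjusted p = 0.0505 to 0.213), nor with quantile normalization (-0.25, adjusted p = 0.086). The next enzyme of that route, Cth, went the other way with Neisseria, at 1.43 ± 0.13 (adjusted p = 2.98e-09), and was 0.04 ± 0.14 with Fusobacterium and 0.30 ± 0.14 with Helicobacter.

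Of the enzymes not yet given, Asns, Psat1 and Phgdh were higher with Helicobacter and Neisseria and were not called with Fusobacterium. Asns, which makes asparagine and is given in full for its promoter window, measured 149, 147 and 157 TPM in the untreated libraries, 153, 146 and 160 with Fusobacterium, 167, 172 and 172 with Helicobacter and 241, 250 and 256 with Neisseria. The Fusobacterium and untreated libraries of Asns overlapped, and the Neisseria libraries were highest. It rose by 0.93 ± 0.05 (adjusted p = 2.7e-14) with Neisseria and 0.27 ± 0.05 (adjusted p = 0.00013) with Helicobacter, and was -0.01 ± 0.05 with Fusobacterium. Phgdh and Psat1, which precede Psph in serine synthesis, rose with Neisseria by 0.34 ± 0.04 and 0.59 ± 0.04. Phgdh has 8 processed pseudogenes at 95% identity or more over 200 bases, so its count is uncertain. The proline enzymes Aldh18a1 and Pycr1 were called with Neisseria alone, at 0.91 ± 0.05 and 0.59 ± 0.19. The Pycr1 call was lost without untreated replicate 3 (0.43, adjusted p = 0.0878), without scaling (0.42, adjusted p = 0.0694) and with limma on log2(TPM + 1) (0.29, adjusted p = 0.091).

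The transporters included members that moved in opposite directions between bacteria. Of the 7, 6 were higher and 1 lower with Neisseria, 5 higher and 0 lower with Helicobacter, and 3 higher and 2 lower with Fusobacterium. The shares higher were 85.7%, 71.4% and 42.9% in that order, against 25.4%, 10.5% and 32.8% of all tested genes. The shares lower were 14.3%, 0% and 28.6%, against 25.5%, 8.36% and 32.4%. The median log2 change of the transporters was 0.85, 0.22 and 0.10. Summed over the 7, their level was 518 ± 14.7 TPM untreated, 582 ± 9.29 with Fusobacterium, 566 ± 41.4 with Helicobacter and 735 ± 51.7 with Neisseria (SD, n = 3).

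Slc7a5 and Slc3a2 encode the light and heavy chains of an exchanger that brings in leucine and other large neutral amino acids. Slc7a5 (ENSMUSG00000040010, chr8:121881150-121907694) stood at 45.3, 47.9 and 44.3 TPM in the untreated libraries, 60.6, 62.9 and 62.3 with Fusobacterium, 62.7, 75 and 66.5 with Helicobacter and 102, 116 and 126 with Neisseria. Untreated libraries were lowest and Neisseria libraries highest, while Fusobacterium and Helicobacter libraries overlapped by a small margin. It rose by 1.52 ± 0.06 (adjusted p = 1.4e-16) with Neisseria, 0.67 ± 0.06 (adjusted p = 5.79e-09) with Helicobacter and 0.40 ± 0.06 (adjusted p = 2.34e-06) with Fusobacterium. Slc3a2 (ENSMUSG00000010095, chr19:8706882-8723369) measured 102, 108 and 108 TPM in the untreated libraries, 105, 110 and 104 with Fusobacterium, 120, 127 and 120 with Helicobacter and 192, 198 and 207 with Neisseria. Its Fusobacterium and untreated libraries overlapped. Slc3a2 rose by 1.11 ± 0.04 (adjusted p = 1.18e-16) with Neisseria and 0.31 ± 0.04 (adjusted p = 8.85e-06) with Helicobacter, and its change with Fusobacterium was -0.03 ± 0.04.

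Slc1a4 (ENSMUSG00000020142, chr11:20302180-20332713), a carrier of alanine, serine and cysteine, was the member that changed most with Fusobacterium. Its levels were 29.7, 30.5 and 27.5 TPM in the untreated libraries, 127, 133 and 128 with Fusobacterium, 32.1, 34.5 and 30.6 with Helicobacter and 47.1, 48.3 and 55 with Neisseria. Fusobacterium libraries lay above all others by a wide margin, with the Neisseria libraries next and the Helicobacter libraries just above the untreated ones. Slc1a4 rose 4.33-fold with Fusobacterium, a log2 change of 2.12 ± 0.05 (adjusted p = 5.5e-20). With Neisseria the change was 0.98 ± 0.05 (adjusted p = 1.2e-13) and with Helicobacter 0.25 ± 0.05 (adjusted p = 0.00164), the latter not called with limma on log2(TPM + 1) (0.15, adjusted p = 0.111). Its relative Slc1a5 (ENSMUSG00000001918, chr7:16781340-16798274), which takes up glutamine, was found at 78.7, 80 and 81.4 TPM in the untreated libraries, 88.5, 89.4 and 89.3 with Fusobacterium, 71.4, 85.2 and 71.6 with Helicobacter and 50.8, 52 and 57.4 with Neisseria. Neisseria libraries were below all others. Slc1a5 was -0.38 ± 0.05 (adjusted p = 2.81e-06) with Neisseria and 0.12 ± 0.05 (adjusted p = 0.0461) with Fusobacterium. The Fusobacterium call was lost in 6 of the 12 fits that leave out a library (0.10 to 0.12, adjusted p = 0.0558 to 0.159) and with DESeq2 (adjusted p = 0.0537).

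Slc38a2 (ENSMUSG00000022462, chr15:96687394-96699698), a sodium-driven importer of small neutral amino acids, fell most of all members with Fusobacterium. Slc38a2 measured 168, 162 and 152 TPM in the untreated libraries, 103, 107 and 103 with Fusobacterium, 169, 183 and 160 with Helicobacter and 169, 184 and 189 with Neisseria. Each Fusobacterium library was lower than every other library, and the Helicobacter libraries overlapped the untreated ones. It was -0.66 ± 0.04 (adjusted p = 2.52e-12) with Fusobacterium, 0.19 ± 0.04 (adjusted p = 0.002) with Helicobacter and 0.37 ± 0.04 (adjusted p = 5.53e-08) with Neisseria. The Helicobacter call was lost with limma on log2(TPM + 1) (0.09, adjusted p = 0.249). Slc7a1 (ENSMUSG00000041313, chr5:148327410-148399904), an importer of arginine and lysine, stood at 64.4, 64.5 and 55.6 TPM in the untreated libraries, 52.7, 54 and 53.6 with Fusobacterium, 58.9, 67.2 and 51.1 with Helicobacter and 71.8, 87.6 and 93.6 with Neisseria. Only its Neisseria libraries were all above untreated. Slc7a1 was -0.23 ± 0.08 (adjusted p = 0.0249) with Fusobacterium and 0.66 ± 0.08 (adjusted p = 1.62e-05) with Neisseria, and the fall was not called without Fusobacterium replicate 1 or 3 or untreated replicate 1 or 2 (-0.23 to -0.21, adjusted p = 0.0565 to 0.0746), nor with limma on log2(TPM + 1) (-0.20, adjusted p = 0.107). Slc6a9 (ENSMUSG00000028542, chr4:117834506-117875198), a glycine importer, measured 34.3, 35.8 and 32.4 TPM in the untreated libraries, 36.9, 37 and 38.7 with Fusobacterium, 37.2, 40.8 and 33.5 with Helicobacter and 49, 55.5 and 56 with Neisseria. Its Neisseria libraries lay above the rest, and it rose by 0.85 ± 0.05 (adjusted p = 3.87e-12) there and by 0.22 ± 0.06 (adjusted p = 0.00638) with Helicobacter. The Helicobacter call of Slc6a9 was lost without scaling (0.16, adjusted p = 0.057) and with limma on log2(TPM + 1) (0.11, adjusted p = 0.264). Ccdc24 on the other strand covers 27.8% of the exonic bases of Slc6a9, though it had 150 counts in all libraries together.

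**Figure D3:**
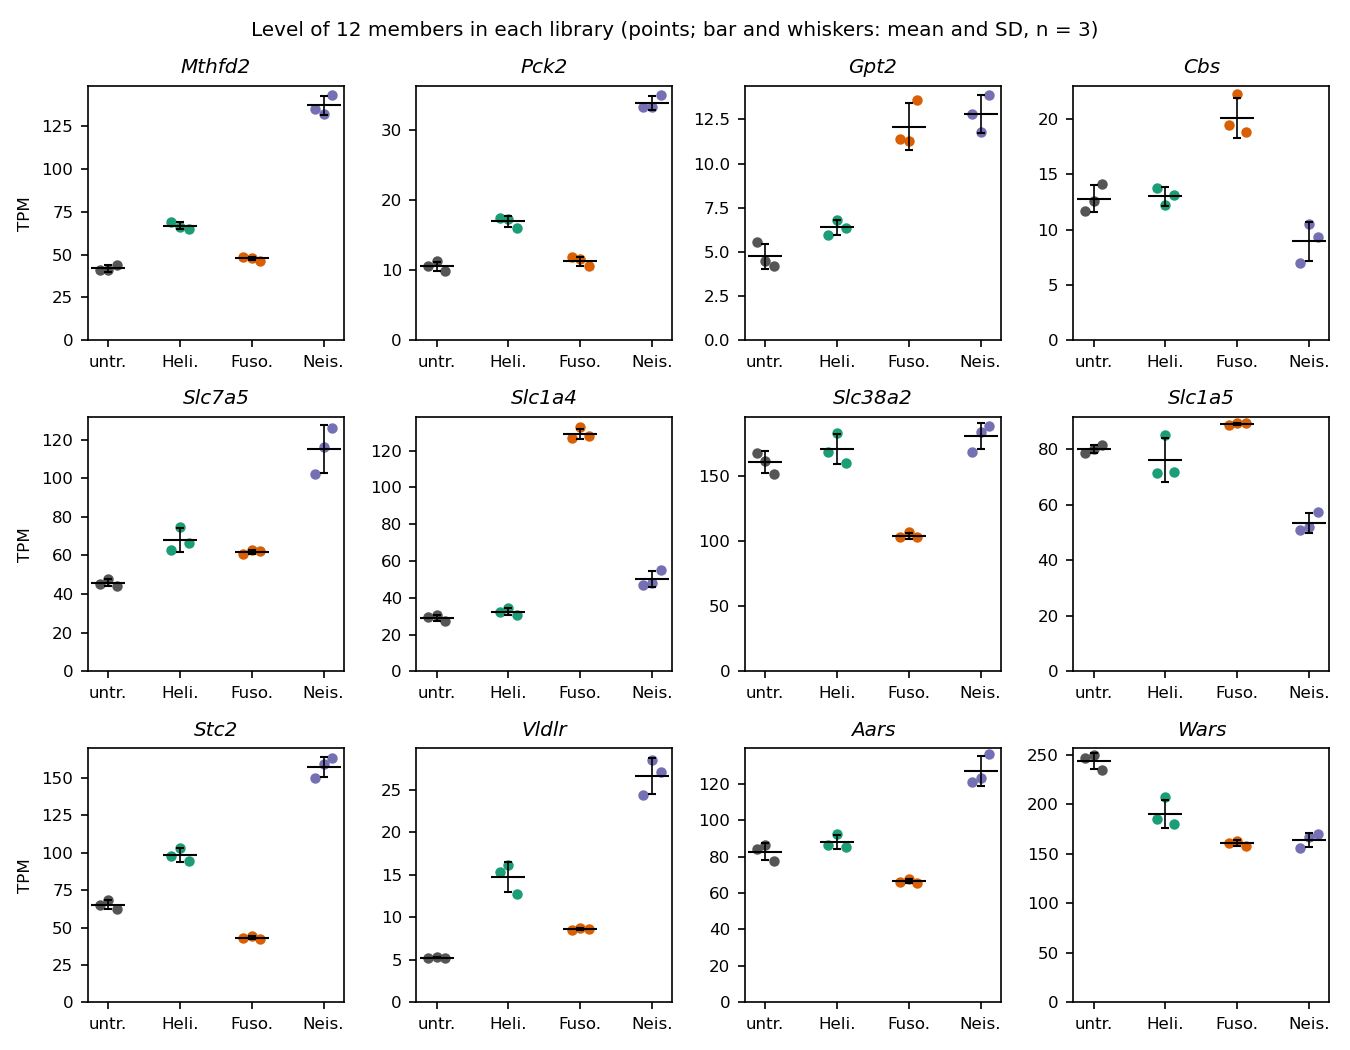
Level in TPM of 12 members in each library, by group, with mean and SD (n = 3). Untreated, Helicobacter, Fusobacterium and Neisseria groups run from left to right; Mthfd2, Pck2, Slc7a5, Stc2, Vldlr and Aars are highest with Neisseria, Slc1a4 and Cbs with Fusobacterium, and Wars is highest in untreated organoids.

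The 4 other ATF4 targets had the largest median change of the roles with Neisseria and with Helicobacter. All 4 were higher with Helicobacter and with Neisseria, and 2 were higher and 1 lower with Fusobacterium. Among all tested genes, 25.4% were higher with Neisseria and 10.5% with Helicobacter, and 32.8% were higher and 32.4% lower with Fusobacterium. The median log2 change of the 4 was 2.29 with Neisseria, 1.30 with Helicobacter and 0.02 with Fusobacterium. Their summed level was 107 ± 2.65 TPM untreated, 102 ± 1 with Fusobacterium, 197 ± 8.62 with Helicobacter and 349 ± 11 with Neisseria (SD, n = 3).

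Stc2 (ENSMUSG00000020303, chr11:31357307-31370074), a secreted glycoprotein, moved in opposite directions between bacteria. Stc2 stood at 65, 68.4 and 62.2 TPM in the untreated libraries, 43.2, 44.1 and 42.5 with Fusobacterium, 97.5, 103 and 94.4 with Helicobacter and 150, 159 and 163 with Neisseria. The 4 groups did not overlap, with Fusobacterium lowest, then untreated, Helicobacter and Neisseria. It was -0.62 ± 0.04 (adjusted p = 1.29e-11) with Fusobacterium, 0.69 ± 0.04 (adjusted p = 5.18e-12) with Helicobacter and 1.48 ± 0.04 (adjusted p = 3.3e-19) with Neisseria. Vldlr (ENSMUSG00000024924, chr19:27216484-27254231), a lipoprotein receptor, was found at 5.19, 5.33 and 5.26 TPM in the untreated libraries, 8.51, 8.7 and 8.62 with Fusobacterium, 15.3, 16.1 and 12.7 with Helicobacter and 24.3, 28.5 and 27 with Neisseria. Here too the groups did not overlap, with untreated lowest. Vldlr rose by 2.54 ± 0.07 (adjusted p = 2.79e-19), 1.58 ± 0.07 (adjusted p = 2.77e-14) and 0.68 ± 0.08 (adjusted p = 3.61e-08) with Neisseria, Helicobacter and Fusobacterium.

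Eif4ebp1 (ENSMUSG00000031490, chr8:27260329-27276674), a repressor of cap-dependent translation, measured 28.1, 31 and 32.6 TPM in the untreated libraries, 44.5, 44.9 and 48 with Fusobacterium, 52.3, 59.5 and 62.3 with Helicobacter and 104, 111 and 112 with Neisseria. Its groups kept the same order without overlap. Eif4ebp1 rose by 2.04 ± 0.07 (adjusted p = 3.65e-17) with Neisseria, 1.03 ± 0.07 (adjusted p = 1.93e-10) with Helicobacter and 0.55 ± 0.08 (adjusted p = 9.54e-07) with Fusobacterium. Adm2 (ENSMUSG00000054136, chr15:89322972-89324728), a secreted peptide of the adrenomedullin family, stood at 6.59, 5.63 and 5.71 TPM in the untreated libraries, 6.8, 3.32 and 2.63 with Fusobacterium, 23.4, 26.2 and 29.6 with Helicobacter and 57.2, 55.3 and 54.7 with Neisseria. Fusobacterium replicate 1 lay above every untreated library and the other Fusobacterium libraries below them. Adm2 rose 10.7-fold with Neisseria, the largest change of any member, at 3.42 ± 0.18 (adjusted p = 2.02e-12), and by 2.23 ± 0.19 (adjusted p = 2.48e-08) with Helicobacter. With Fusobacterium it was -0.51 ± 0.25 (adjusted p = 0.082), and without Fusobacterium replicate 1 it was -1.04 (adjusted p = 0.000555).

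Xpot (ENSMUSG00000034667, chr10:121587380-121626332), the exporter of tRNA from the nucleus, was lower with 2 of the bacteria and higher with none. It measured 74.3, 75.8 and 73.7 TPM in the untreated libraries, 55.5, 58.7 and 59.1 with Fusobacterium, 62.8, 65.1 and 59 with Helicobacter and 65, 67.5 and 71.9 with Neisseria. All treated libraries were lower in TPM than the untreated ones. Xpot was -0.40 ± 0.04 (adjusted p = 9.36e-09) with Fusobacterium and -0.16 ± 0.04 (adjusted p = 0.0066) with Helicobacter, the latter not called in libraries marked L1 alone (-0.14, adjusted p = 0.0546). With Neisseria it was 0.07 ± 0.04 (adjusted p = 0.135), a sign that turned under quantile normalization (-0.10, adjusted p = 0.0479) and with limma on log2(TPM + 1) (-0.13, adjusted p = 0.0389). The processed pseudogene Gm7389 is 95.6% identical to Xpot over 2918 bases, so its count is uncertain.

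Among the 17 cytosolic synthetases, 12 were higher and 1 lower with Neisseria, 6 higher and 2 lower with Helicobacter, and 2 higher and 7 lower with Fusobacterium. The shares higher were 70.6%, 35.3% and 11.8% in that order, against 25.4%, 10.5% and 32.8% of all tested genes. The shares lower were 5.88%, 11.8% and 41.2%, against 25.5%, 8.36% and 32.4%. The median log2 change of the synthetases was 0.49, 0.11 and -0.05, smaller than that of the synthesis enzymes in each case. Their summed level was 2344 ± 17.6 TPM untreated, 2284 ± 10.6 with Fusobacterium, 2300 ± 52 with Helicobacter and 2709 ± 67 with Neisseria (SD, n = 3). The synthetases higher with Neisseria were those for alanine, cysteine, glutamate and proline (Eprs), glycine, isoleucine, leucine, methionine, asparagine, arginine, serine, threonine and tyrosine. Those not called were Hars, Kars, Qars and Vars.

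Cars (ENSMUSG00000010755, chr7:143557230-143600090), for cysteine, had the largest rise of the synthetases. Cars stood at 53.4, 49.4 and 51.8 TPM in the untreated libraries, 70.9, 69.1 and 69 with Fusobacterium, 61.2, 64.9 and 63.3 with Helicobacter and 92.3, 84.3 and 94.4 with Neisseria. All treated libraries were above untreated. It rose by 1.01 ± 0.05 (adjusted p = 7.93e-14) with Neisseria, 0.39 ± 0.05 (adjusted p = 8.82e-06) with Helicobacter and 0.40 ± 0.05 (adjusted p = 6.52e-07) with Fusobacterium. Rars, for arginine, was the other synthetase that rose with Fusobacterium, by 0.36 ± 0.04 (adjusted p = 9.88e-08).

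Aars (ENSMUSG00000031960, chr8:111033144-111057664), for alanine, measured 84.2, 86.3 and 77.3 TPM in the untreated libraries, 66.1, 67.6 and 65.4 with Fusobacterium, 86.2, 92.1 and 85.1 with Helicobacter and 121, 123 and 136 with Neisseria. Its Fusobacterium libraries were below and its Neisseria libraries above all others. Aars was -0.35 ± 0.04 (adjusted p = 1.89e-07) with Fusobacterium, 0.19 ± 0.04 (adjusted p = 0.00247) with Helicobacter and 0.82 ± 0.04 (adjusted p = 5.18e-14) with Neisseria, and limma on log2(TPM + 1) did not call the rise with Helicobacter (0.09, adjusted p = 0.25). Exosc6 on the same strand shares 14.3% of the exonic bases of Aars and is listed at 0 counts in all libraries. Gars (ENSMUSG00000029777, chr6:55038007-55079500), for glycine, stood at 188, 186 and 193 TPM in the untreated libraries, 176, 184 and 183 with Fusobacterium, 206, 206 and 215 with Helicobacter and 278, 286 and 285 with Neisseria. The Neisseria libraries were highest, followed by Helicobacter. Gars rose by 0.79 ± 0.04 (adjusted p = 3.86e-13) and 0.25 ± 0.04 (adjusted p = 0.000304) with these, and was -0.09 ± 0.05 with Fusobacterium. Sars (ENSMUSG00000068739, chr3:108424865-108445209), for serine, measured 123, 119 and 126 TPM in the untreated libraries, 121, 120 and 125 with Fusobacterium, 144, 123 and 125 with Helicobacter and 170, 175 and 171 with Neisseria. Neisseria libraries lay apart, and Helicobacter replicate 1 stood above its other replicates. The Sars change was 0.69 ± 0.05 (adjusted p = 4.67e-10) with Neisseria and 0.19 ± 0.06 (adjusted p = 0.0174) with Helicobacter, where the call was lost without Helicobacter replicate 1 or untreated replicate 1 or 2 (0.11 to 0.19, adjusted p = 0.0691 to 0.156) and with limma on log2(TPM + 1) (0.09, adjusted p = 0.232).

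Iars, Tars, Lars and Mars fell with Fusobacterium and rose with Neisseria, as Aars did. Iars (ENSMUSG00000037851, chr13:49682100-49734267), for isoleucine, stood at 90.5, 91 and 83.7 TPM in the untreated libraries, 66, 73.3 and 70.7 with Fusobacterium, 78.6, 88 and 75.4 with Helicobacter and 98.9, 109 and 117 with Neisseria. It was -0.37 ± 0.05 (adjusted p = 7.18e-07) with Fusobacterium and 0.49 ± 0.05 (adjusted p = 8.29e-09) with Neisseria, with -0.03 ± 0.05 for Helicobacter. Tars (ENSMUSG00000022241, chr15:11382301-11399665), for threonine, measured 102, 96.7 and 98.5 TPM in the untreated libraries, 84.5, 77.4 and 84.1 with Fusobacterium, 101, 101 and 98.5 with Helicobacter and 115, 120 and 124 with Neisseria. Fusobacterium libraries were lowest and Neisseria libraries highest for both genes, with Helicobacter and untreated libraries overlapping. Tars was -0.30 ± 0.04 (adjusted p = 2.17e-06) with Fusobacterium and 0.47 ± 0.04 (adjusted p = 2.52e-09) with Neisseria, with 0.12 ± 0.04 for Helicobacter. Lars, for leucine, was found at 90.4, 92.1 and 89.1 TPM in the untreated libraries, 77, 86.4 and 82.6 with Fusobacterium, 93.4, 94.6 and 90 with Helicobacter and 106, 117 and 113 with Neisseria. Lars was -0.17 ± 0.04 (adjusted p = 0.00158) with Fusobacterium, 0.13 ± 0.04 (adjusted p = 0.0344) with Helicobacter and 0.51 ± 0.04 (adjusted p = 9.4e-10) with Neisseria, and its Helicobacter call was lost in 5 of the 12 fits that leave out a library (0.12 to 0.14, adjusted p = 0.0616 to 0.117) and with limma on log2(TPM + 1) (0.03, adjusted p = 0.646). Mars (ENSMUSG00000040354, chr10:127296221-127311786), for methionine, measured 67.3, 65.4 and 66.7 TPM in the untreated libraries, 54.4, 57.4 and 58.1 with Fusobacterium, 67.5, 61.9 and 66.8 with Helicobacter and 64, 67.6 and 67.2 with Neisseria. Only its Fusobacterium libraries stood apart. Mars was -0.26 ± 0.06 (adjusted p = 0.000241) with Fusobacterium and 0.20 ± 0.05 (adjusted p = 0.00402) with Neisseria, a call that was lost without scaling beyond the library total (0.03, adjusted p = 0.613) and whose sign turned with limma on log2(TPM + 1). Ddit3 on the other strand shares 1.99% of the exonic bases of Mars, and it rose 30.2-fold with Neisseria.

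Wars, for tryptophan, was named after its values were seen, as the member lower with all 3 bacteria. Wars (ENSMUSG00000021266, chr12:108860030-108894174) stood at 247, 250 and 235 TPM in the untreated libraries, 161, 163 and 158 with Fusobacterium, 185, 207 and 180 with Helicobacter and 156, 167 and 170 with Neisseria. Every treated library was below every untreated library. It was -0.63 ± 0.04 (adjusted p = 2.36e-12) with Fusobacterium, -0.36 ± 0.04 (adjusted p = 4.58e-08) with Neisseria and -0.26 ± 0.04 (adjusted p = 4.23e-05) with Helicobacter. Vars, for valine, was lower with Fusobacterium, at -0.37 ± 0.04 (adjusted p = 2.36e-08), and with Helicobacter, at -0.12 ± 0.04 (adjusted p = 0.0346). The Helicobacter call of Vars was lost without any of Helicobacter replicates 1 and 3 and the 3 untreated libraries (-0.13 to -0.10, adjusted p = 0.0583 to 0.142), and with only the 6 compared libraries in the fit (-0.12, adjusted p = 0.0968). Nars, for asparagine and the most abundant member, rose by 0.65 ± 0.04 (adjusted p = 1.74e-11) with Neisseria and by 0.15 ± 0.04 (adjusted p = 0.0232) with Helicobacter, the latter lost without Helicobacter replicate 1 or untreated replicate 1 or 2 (0.09 to 0.14, adjusted p = 0.0888 to 0.187) and with limma on log2(TPM + 1) (0.04, adjusted p = 0.415). Yars and Eprs were called with Neisseria alone, at 0.68 ± 0.06 and 0.39 ± 0.04. The changes of Hars, Kars and Qars with Neisseria were 0.05 ± 0.06, -0.03 ± 0.04 and 0.02 ± 0.04, and that of Vars was -0.03 ± 0.04. Without scaling beyond the library total, Kars, Qars and Vars were called lower there (-0.20, -0.14 and -0.19), as they were with quantile normalization and with limma on TPM, which also called Hars lower. All 3 Neisseria libraries were below the untreated ones in TPM for each of these 4 genes. The same held for 49.3% of all tested genes, while 15.2% lay wholly above untreated.

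The synthetases fall into a pair of unrelated structural classes, and some sit in a multi-synthetase complex held by the scaffold proteins Aimp1, Aimp2 and Eef1e1. With Neisseria 6 of 9 class I enzymes were higher and 1 lower, and 7 of 10 class II enzymes were higher and 0 lower. With Fusobacterium 5 of the 9 and 4 of the 10 were lower, 2 and 1 higher. With Helicobacter 2 of the 9 were higher and 2 lower, and 5 of the 10 were higher and 0 lower. Of 11 genes of the complex, 7 were higher and 0 lower with Neisseria, 2 and 0 with Helicobacter, and 1 and 6 with Fusobacterium. These lists share genes with the members. Of all tested genes, 25.4% were higher and 25.5% lower with Neisseria, 10.5% and 8.36% with Helicobacter, and 32.8% and 32.4% with Fusobacterium.

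Genes of the same pathways outside the member list were counted in the same way. The background over all tested genes was 25.4% higher and 25.5% lower with Neisseria. It was 10.5% and 8.36% with Helicobacter, and 32.8% and 32.4% with Fusobacterium. The other 7 cytosolic synthetase and scaffold genes had 3 higher and 0 lower with Neisseria, 1 and 0 with Helicobacter, and 1 and 5 with Fusobacterium. The scaffold genes Aimp2 and Eef1e1 were -0.91 ± 0.09 (adjusted p = 6.27e-09) and -0.61 ± 0.07 (adjusted p = 8.27e-08) with Fusobacterium, and the second threonine enzyme Tarsl2 was -0.85 ± 0.12 (adjusted p = 1.72e-06). Of 20 genes that charge tRNA in mitochondria, 1 was higher and 7 lower with Neisseria, 1 and 1 with Helicobacter, and 1 and 14 with Fusobacterium. Their median was -0.18, -0.05 and -0.32, set against 0.49, 0.11 and -0.05 for the cytosolic members. Wars2 and Qrsl1, which serve tryptophan and glutamine charging, fell most with Fusobacterium, at -1.34 ± 0.11 (adjusted p = 4.52e-10) and -1.07 ± 0.11 (adjusted p = 8.55e-09). The mitochondrial leucine enzyme Lars2 was the exception, at 989 ± 70.1 TPM with Fusobacterium and 19.1 ± 0.407 untreated (SD, n = 3), a log2 change of 5.66 ± 0.26 (adjusted p = 1e-07). Near copies and overlapping exons were looked for in the members alone. Whether the counts listed for Lars2 all come from its own transcript was not tested.

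Of 16 other one-carbon genes, 4 were higher and 6 lower with Neisseria, 2 and 3 with Helicobacter, and 3 and 9 with Fusobacterium. The shares higher were 25%, 12.5% and 18.8% in that order, against 25.4%, 10.5% and 32.8% of all tested genes. The shares lower were 37.5%, 18.8% and 56.2%, against 25.5%, 8.36% and 32.4%. The shares higher with Neisseria and Helicobacter were thus near those of all genes. Aldh1l2, which oxidises formyl-folate in mitochondria, rose by 2.52 ± 0.14 (adjusted p = 3.36e-13) with Neisseria, from 1.13 ± 0.127 to 5.63 ± 0.497 TPM. Mtr, the methionine synthase, was -0.81 ± 0.10 (adjusted p = 3.61e-07) with Neisseria. Of 15 tested genes of other amino acid metabolism, 5 were higher and 2 lower with Neisseria, 2 and 1 with Helicobacter, and 8 and 2 with Fusobacterium. Their shares higher were 33.3%, 13.3% and 53.3%, and their shares lower 13.3%, 6.67% and 13.3%, beside the same shares of all genes. Arg2, the mitochondrial arginase, rose by 2.84 ± 0.22 (adjusted p = 7.74e-11) with Fusobacterium, from 1.97 ± 0.6 to 14.5 ± 0.519 TPM. Ass1, which makes argininosuccinate from citrulline, rose by 0.89 ± 0.10 (adjusted p = 3.46e-08). Bcat1, a cytosolic branched-chain aminotransferase, was 3.39 ± 0.55 (adjusted p = 1.65e-05) with Neisseria on 88 counts against 9 untreated over 3 libraries each.

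Of 18 tested amino acid transporters outside the member list, 5 were higher and 7 lower with Neisseria, 1 and 5 with Helicobacter, and 7 and 4 with Fusobacterium. The shares higher were 27.8%, 5.56% and 38.9% in that order, against 25.4%, 10.5% and 32.8% of all tested genes. The shares lower were 38.9%, 27.8% and 22.2%, against 25.5%, 8.36% and 32.4%. The shares higher were thus near those of all genes with Neisseria and Fusobacterium. The glutamate carrier Slc1a1, a relative of Slc1a4, rose by 1.82 ± 0.14 (adjusted p = 4.3e-11) with Fusobacterium. Slc38a3, a glutamine carrier related to Slc38a2, was 1.52 ± 0.39 (adjusted p = 0.00168) there. The arginine importer Slc7a3 rose by 1.56 ± 0.21 (adjusted p = 1.46e-06) with Neisseria. The cystine importer Slc7a11, named outside the rule as a known ATF4 target, stood at 85.6 ± 5.41 TPM untreated, 199 ± 7.16 with Fusobacterium, 67.1 ± 9.24 with Helicobacter and 126 ± 11.4 with Neisseria.

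The 18 genes listed as regulators of the integrated stress response include some with other roles, such as the enzyme Chac1. They were mostly higher with all 3 bacteria. Of the 18, 15 were higher and 2 lower with Neisseria, 13 and 2 with Helicobacter, and 12 and 1 with Fusobacterium. The lowest changes were -0.45 for Eif2ak1 with Neisseria, -0.27 for Eif2ak4 with Helicobacter and -0.80 for Atf5 with Fusobacterium. The shares higher were 83.3%, 72.2% and 66.7% in that order, against 25.4%, 10.5% and 32.8% of all tested genes. The shares lower were 11.1%, 11.1% and 5.56%, against 25.5%, 8.36% and 32.4%. The median log2 change of the regulators was 1.51, 0.42 and 0.55, against 0.67, 0.19 and 0.03 for the 42 members. Atf4 itself, named outside the rule, measured 277 ± 2.03 TPM untreated, 388 ± 11.4 with Fusobacterium, 452 ± 12 with Helicobacter and 725 ± 23.5 with Neisseria. Its RNA rose by 1.60 ± 0.04 (adjusted p = 1.58e-19), 0.81 ± 0.04 (adjusted p = 5.17e-13) and 0.46 ± 0.04 (adjusted p = 2.22e-09) with Neisseria, Helicobacter and Fusobacterium. Chac1, which breaks down glutathione, rose by 5.49 ± 0.12, 3.83 ± 0.12 and 3.67 ± 0.13. The feedback inhibitor Trib3 rose by 5.21 ± 0.08, 3.03 ± 0.09 and 1.53 ± 0.10, and the transcription factor Ddit3 by 4.91 ± 0.11, 1.25 ± 0.13 and 1.20 ± 0.13. The 3 comparisons share their untreated libraries.

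**Figure D4:**
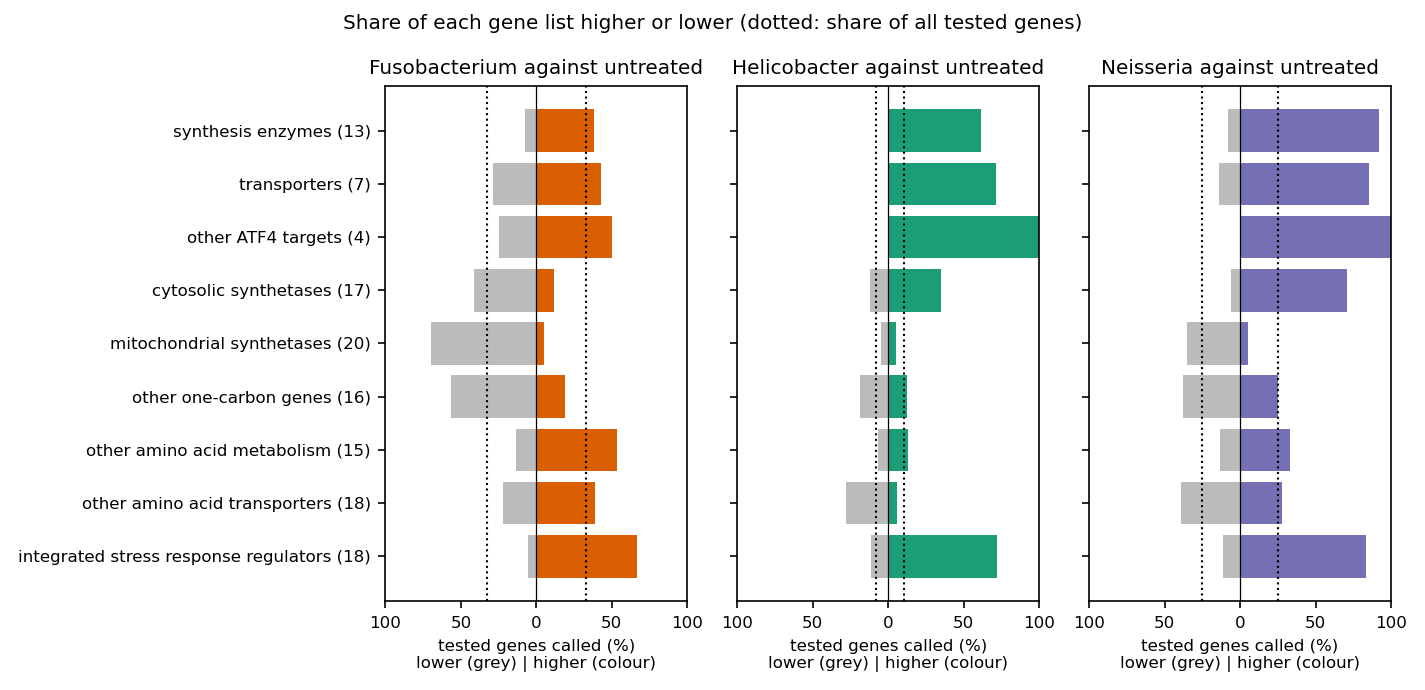
Share of the tested genes of each list that were higher (colour) or lower (grey) than untreated, for each bacterium, with the number tested in parentheses and the share of all tested genes as dotted lines. The 4 member lists at the top reach 70.6% or more higher with Neisseria, while the mitochondrial synthetases are mostly lower or not called.

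Members with the element core in their promoter were set beside the other 20 with a promoter. With Neisseria 11 of the 11 were higher (median 0.79), as were 16 of the 20 (median 0.68), while 1 of the 20, Cbs, was lower. With Helicobacter 6 of the 11 were higher and 0 lower (median 0.19), and 12 of the 20 higher and 1 lower (median 0.21). With Fusobacterium 3 of the 11 were higher and 3 lower, and 4 of the 20 higher and 6 lower. Over all tested genes, 25.4% were higher and 25.5% lower with Neisseria, 10.5% and 8.36% with Helicobacter, and 32.8% and 32.4% with Fusobacterium. Of the windows shown above, those of Slc1a4 and Vldlr belong to genes that rose with Fusobacterium, that of Iars to a gene that fell, and those of Pck2 and Asns to genes that were not called.

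The bacteria were also compared with each other. Neisseria was above Helicobacter in 33 members and below it in 3, where 19% and 17.7% of all tested genes were called. Neisseria was above Fusobacterium in 35 and below in 4, against 34.1% and 32.5%. Fusobacterium was above Helicobacter in 5 and below in 26, against 31.8% and 33.5%. The median log2 difference was 0.53 for Neisseria against Helicobacter, 0.71 for Neisseria against Fusobacterium and -0.27 for Fusobacterium against Helicobacter. By role, the median of Neisseria against Helicobacter was 0.99 in the other ATF4 targets, 0.65 in the enzymes, 0.63 in the transporters and 0.39 in the synthetases.

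The members higher with Fusobacterium than with Helicobacter were Gpt2, Got1, Cbs, Slc1a4 and Rars. Slc1a4 differed by 1.86 ± 0.05 (adjusted p = 9.93e-19), Gpt2 by 0.79 ± 0.10 (adjusted p = 3.02e-07) and Got1 by 0.78 ± 0.06 (adjusted p = 9.61e-11). The largest differences in the other direction were in Adm2, at -2.74 ± 0.20 (adjusted p = 4.56e-10), and Stc2, at -1.32 ± 0.04 (adjusted p = 1.87e-17). Members lower with Neisseria than with Fusobacterium were Slc1a4, Cbs, Slc1a5 and Got1. Slc1a4 was -1.13 ± 0.05 (adjusted p = 2.62e-15), and Cbs was -0.94 ± 0.12 (adjusted p = 2.44e-07). Adm2 showed the widest gap between Neisseria and Fusobacterium, 15.3-fold, at 3.93 ± 0.19 (adjusted p = 6.03e-13). Against Helicobacter, Neisseria was lower for Cbs at -0.45 ± 0.12 (adjusted p = 0.00477), Slc1a5 at -0.41 ± 0.05 (adjusted p = 1.92e-06) and Wars at -0.11 ± 0.04 (adjusted p = 0.0374). The difference in Wars was not called in 5 of the 12 fits that leave out a library (-0.11 to -0.06, adjusted p = 0.0507 to 0.239), nor with DESeq2 (-0.10, adjusted p = 0.0606).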

How the data were processed

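The table that the authors deposited holds values for 12 libraries of mouse gastric organoids. Its total counts are whole numbers per gene that the authors deposited without scaling, as the headers and values show. Per the file headers, its TPM levels were also deposited by the authors. The submitters' processing notes name GRCm38 as the build, the headers mark the reads as paired, and positions are those of the table. Which aligner and counter were used, and whether strand was used, is not given in the sources used here. The 24 columns of RPKM and CPM were left aside.

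Counts were fitted with edgeR 4.0.16 in R 4.3.3 (TMM scaling, default filter on low counts, robust quasi-likelihood, a coefficient per group over all 12 libraries). The filter left 12805 genes with 99.96% of the counts, and p-values were adjusted over these by Benjamini-Hochberg, two-sided, with a threshold of 0.05. The standard error is the size of the change over the square root of the F value, with a common biological coefficient of variation of 5.71%. Counts of replicates differed beyond counting noise. The fit was also run on simulated data with the same spread for every gene and as many rises as falls. That run does not test the scaling, and no result here rests on it. The alternatives were median-of-ratios scaling, no scaling, quantile normalization, DESeq2 1.42.0, limma 3.58.1 on log2(TPM) with pseudocounts of 0.1, 1 and 5, other filters, the 6 compared libraries alone, a replicate block, only libraries marked L1 in the column names, and each library left out. The members, lists and tests were chosen with earlier results of these data known. Full values are given for up to 4 members of a role with the largest called change and for members called in opposite directions; of other lists, up to 3 genes. Wars, Asns, Atf4, Slc7a11 and single values of other members were added after the values were seen. Some items of these lists are not reported here. Of the listed genes, 3 were not matched in the table (Pc, Amy2b and Itgam). Motifs were searched in RefSeq promoters with Python 3.11.15. Near copies were found by aligning the longest protein-coding transcript of each member to GENCODE M21 transcripts with minimap2.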

Additional observations from a re-analysis of the deposited data

How the results depend on the processing

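Leaving out each library in turn moved the count of members against untreated to 10 to 12 higher and 10 to 13 lower with Fusobacterium, 20 to 27 higher and 2 to 3 lower with Helicobacter, and 33 to 34 higher and 2 to 3 lower with Neisseria. The other settings gave 32 to 34 members higher with Neisseria, 16 to 24 with Helicobacter and 11 to 14 with Fusobacterium. Between bacteria they gave 30 to 34 higher with Neisseria than Helicobacter and 29 to 35 higher than Fusobacterium. The counts that moved by over 1.5 times were small ones. With only libraries marked L1, 1 member was lower with Helicobacter. Members lower with Neisseria than untreated numbered 6 without scaling, 6 with quantile normalization and 8 with limma on log2(TPM) at each pseudocount. Members higher with Fusobacterium than Helicobacter numbered 8 without scaling and 10 with limma on TPM. Members lower with Neisseria numbered 7 without scaling and with limma on TPM against Fusobacterium, and 6 without scaling, with quantile normalization and with limma on TPM against Helicobacter.

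Small changes turned sign where values were scaled differently. With limma on log2(TPM) at pseudocounts of 1, 0.1 and 5, Neisseria against untreated was -0.13, -0.13 and -0.12 for Xpot, -0.16, -0.16 and -0.15 for Hars, -0.00, -0.01 and -0.00 for Mars and -0.18, -0.18 and -0.17 for Qars. Fusobacterium against Helicobacter was 0.00, 0.00 and 0.00 for Aldh18a1 and 0.12, 0.12 and 0.12 for Hars, and Neisseria against Fusobacterium was -0.23, -0.24 and -0.23 for Qars. With quantile normalization Xpot was -0.10 and Qars -0.16 for Neisseria against untreated, Qars was -0.19 against Fusobacterium, and Phgdh was -0.13 and Slc38a2 -0.01 against Helicobacter. Without scaling Qars was -0.14 against untreated and -0.18 against Fusobacterium. The cause was not tested. Over all genes, 49.9% of calls with Neisseria were higher, against 26.9% without scaling and 22.6% with limma on log2(TPM + 1), and with Helicobacter 55.8% against 32.1% and 24%. For Neisseria against Helicobacter the share was 51.8%, against 28.5% and 28.7%, for Neisseria against Fusobacterium 51.3%, against 34.1% and 30.1%, and for Fusobacterium against Helicobacter 48.7%, against 61.8% with limma. The Helicobacter calls over all genes numbered 2419, and 1669 with only L1 libraries, 1594 without untreated replicate 1, and 1596 without untreated replicate 2.

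The labels state no pairing of libraries by replicate number. In deviations from the group mean, same-numbered libraries correlated at -0.10 to 0.09 in 18 pairs, none over 0.1. Differently numbered libraries correlated at -0.13 to 0.10. These deviations also hold counting noise, so the values cannot exclude shared cultures or animals. With the replicate block, 12 members were higher and 12 lower with Fusobacterium, 24 and 3 with Helicobacter, and 34 and 3 with Neisseria, and 250 of 252 member changes kept their call.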
